A study of Rattus norvegicus with 12 samples.

Results

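The genes described here were those whose RNA was higher in every library of taurochenodeoxycholic acid (TCDCA) treated synoviocytes than in every control library. Fibroblast-like synoviocytes (FLS), the lining fibroblasts of the joint, came from male Sprague Dawley rats with adjuvant arthritis (AA) raised with complete Freund's adjuvant, and were used as third-passage cultures. Control cells (FCA) were kept in DMEM without TCDCA, and treated cells received it at 10 µM (AT10), 1 µM (AT1) or 0.1 µM (AT01), all for 12 h, with 3 libraries in each of the 4 groups. FCA cells also came from arthritic rats, so no cells of healthy joints serve as a reference, and the cells were grown outside the joint. The study's text calls the 3 libraries of a group repeats and does not say whether they came from separate animals or cultures, so p-values measure the spread between libraries, which may be technical.

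Of 22442 gene records, 11611 had a mean of at least 1 FPKM (fragments per kilobase of transcript, scaled to the mapped fragments of each library) over the 12 libraries. In 111 of these, 0.956%, the lowest of the 9 TCDCA values was above the highest of the 3 FCA values. The reverse, every TCDCA value below every FCA value, held for 221 records, 1.9%. Another 31 records showed the higher pattern but had a mean under 1 FPKM and were left out. The 111 members were chosen by the FPKM values of the TCDCA and FCA libraries themselves, so their difference from FCA is given as a description, with no test. The rule did not compare the 3 doses with each other, and these differences were tested. It did use all 9 TCDCA values, since each had to exceed the FCA values, so a record with a low dose group could not enter.

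TCDCA is a bile acid, the taurine conjugate of chenodeoxycholic acid. Bile acids act on cells through the nuclear receptor FXR and the membrane receptor TGR5, which raises cyclic AMP. FLS make the matrix and the lubricant of the joint, and in arthritis they divide, attach leukocytes and release matrix-degrading enzymes.

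Shifts of the members were small. In such bulk RNA, more cells of a type and more RNA per cell cannot be told apart. On the log2(FPKM + 1) scale the difference of means, 9 TCDCA minus 3 FCA libraries, had a median of 0.28 over the 111 members and ranged from 0.10 to 2.53. Over all 11611 records tested, the median was 0.003. The difference was over 0.5 in 12 members and over 1 in 3. The median ratio of mean FPKM was 1.25 over the 110 members above 0 in every FCA library. Members were not the abundant genes of these cells, with a median level of 5.05 FPKM against 6.52 over all records tested and 11.97 over the 221 lower records. A mean of at least 10 FPKM was found in 28 members, or 25.2%, against 37.6% of all records tested.

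**Figure D1:**
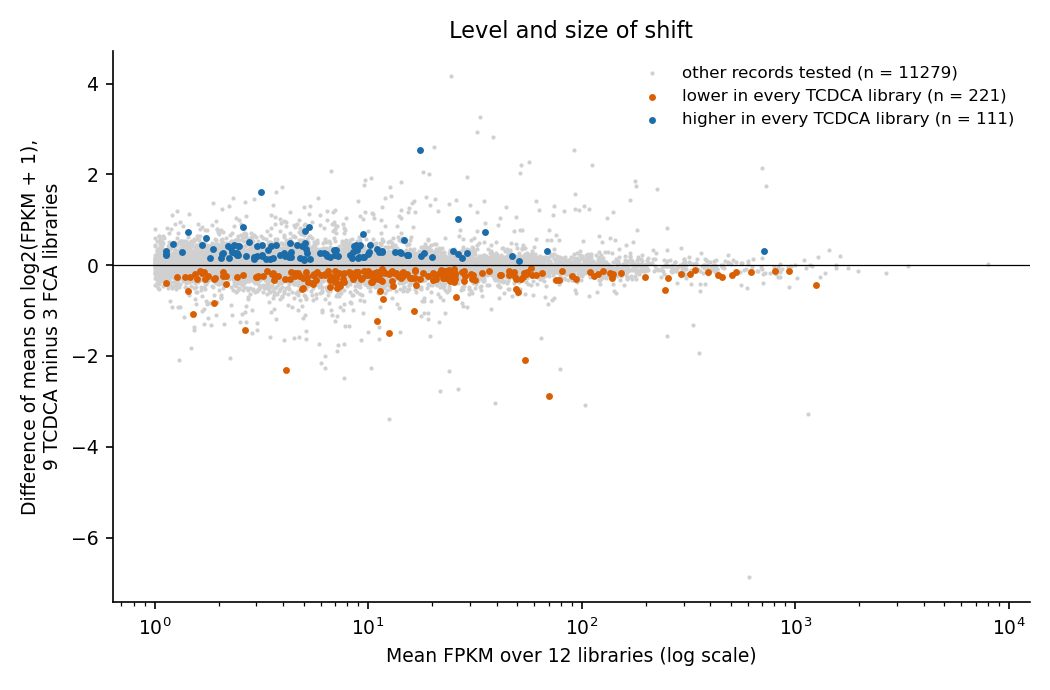
Mean FPKM over 12 libraries (x, log scale) against the difference of means on log2(FPKM + 1), 9 TCDCA minus 3 FCA libraries (y), with 1 point per record tested. Blue points are the 111 members, mostly between 0.1 and 0.5, and orange points are the 221 records lower in every TCDCA library, which reach higher levels. Grey points beyond both sets have shifts as large but groups that overlap.

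The distance between the groups was smaller still. The gap from the highest FCA to the lowest TCDCA library had a median of 0.030 on the log2(FPKM + 1) scale and was over 0.1 in 18 members. A few libraries set this gap. FCA 3 was the highest FCA library in 61 members (55.0%, against 36.9% of all records tested), and AT01 1 was the lowest TCDCA library in 30 (27.0% against 15.5%). Without FCA 3, 538 records would meet the rule, and without AT01 1, 269 would. After median-of-ratios scaling of the libraries, 97 records met it, among them 87 of the 111, and 24 members no longer did.

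Members were sorted into roles below, and roles were given to members only, so these counts have no share over all records tested. Of the 57 members with Gene Ontology terms, 10.5% carried RNA binding and 7.02% DNA binding, against 10.4% and 7.45% of tested records with terms. Other terms, each of few members, lay further off in both directions, such as chromatin binding (7.02% against 2.49%) and ATP binding (5.26% against 8.98%). These shares were not tested. Matrix and cell surface genes held the most abundant member. Lum encodes lumican, a proteoglycan that spaces collagen fibrils. Its FPKM was 594.72, 603.35 and 625.06 in FCA, and in the 9 TCDCA libraries it was 695.38 at the lowest, 735.78 at the median and 906.45 at the highest. All 9 TCDCA values lay above the FCA values, with a ratio of mean FPKM of 1.24. By dose, the mean was 779 ± 112 FPKM in AT01, 735 ± 41.8 in AT1 and 740.2 ± 42.1 in AT10 (SD, n = 3 each).

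Vcam1 encodes the adhesion molecule that holds leukocytes through integrins. Its level was low, at 3.64, 2.55 and 3.07 FPKM in FCA, and TCDCA libraries ranged from 4.01 over a median of 4.85 to 5.7 FPKM. The groups were 0.11 apart on the log2(FPKM + 1) scale, between FCA 1 and AT10 1. The ratio of mean FPKM was 1.54.

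Adamts12, a secreted metalloproteinase, had 3.29 to 3.79 FPKM in FCA and 4.17 to 5.18 FPKM with TCDCA. Fndc3b, a membrane protein with fibronectin type III domains, had 50.33 to 65.11 FPKM in FCA and 67.06 to 77.24 FPKM with TCDCA. Fap, the fibroblast activation protease, had 12.27, 10.99 and 12.3 FPKM in FCA and 12.49 to 16.37 FPKM with TCDCA, and it left the set after scaling. Fap and the other members described below outside the naming rule were picked for their roles after their values were seen. These 5 genes had a median difference of 0.30.

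**Figure D2:**
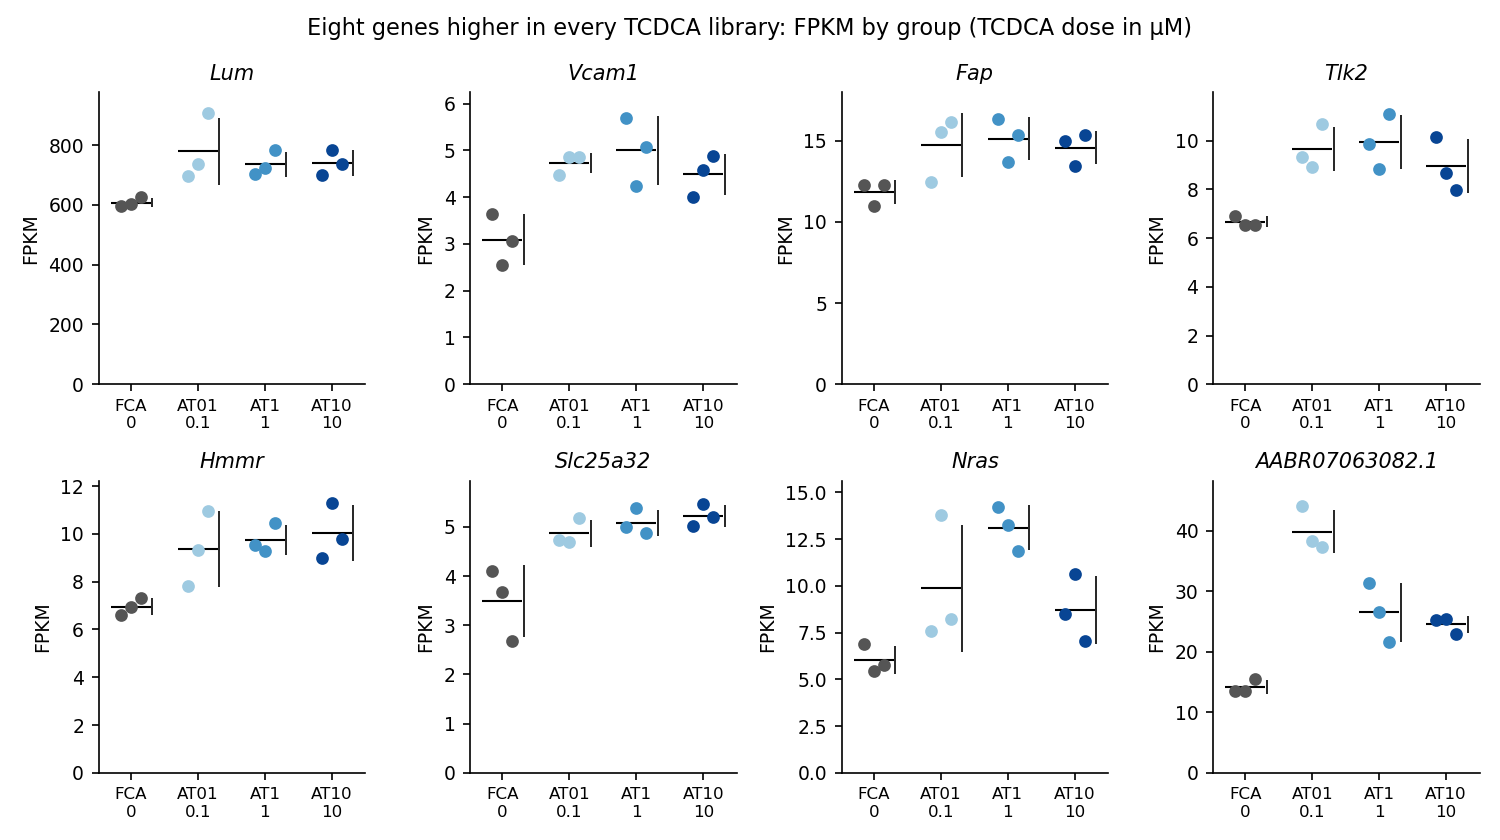
FPKM (y, from 0) of 8 members in each library, by group, with the TCDCA dose in µM under each group name. Points are libraries, horizontal lines are group means and vertical lines span 1 SD on each side (n = 3). In each panel all 9 TCDCA points lie above the 3 FCA points, and AABR07063082.1 is highest at 0.1 µM, at 37.32 to 44.03 FPKM.

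The bases before the start sites of 4 members are shown because Lum is the most abundant member, Vcam1 an inflammatory adhesion gene, Hmmr the mitosis gene among the lists, and Tlk2 the gene with the widest gap among those with a known product. Each line holds the 120 bases upstream of the RefSeq start in the GRCr8 build, 5′ to 3′ in the direction of the gene. Capitals mark matches to the motifs searched, which were the CCAAT box, the TATA box (TATAAA) and the NF-kB site (GGGNNTTCC) in these lines.
Lum (chr7:34245586-34245705, plus strand): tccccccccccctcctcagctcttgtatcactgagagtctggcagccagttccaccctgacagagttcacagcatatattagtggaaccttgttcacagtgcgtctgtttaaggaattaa
Vcam1 (chr2:206742784-206742903, minus strand): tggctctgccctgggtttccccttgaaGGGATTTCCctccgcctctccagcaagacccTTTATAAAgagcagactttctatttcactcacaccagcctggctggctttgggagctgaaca
Hmmr (chr10:25665216-25665335, minus strand): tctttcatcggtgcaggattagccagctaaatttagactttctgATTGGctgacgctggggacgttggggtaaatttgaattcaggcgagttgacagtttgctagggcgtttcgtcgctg
Tlk2 (chr10:90656569-90656688, plus strand): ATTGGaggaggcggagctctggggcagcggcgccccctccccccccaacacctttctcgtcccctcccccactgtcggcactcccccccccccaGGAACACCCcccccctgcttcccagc

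Vcam1 held a TATA box and an NF-kB site, Hmmr a CCAAT box read on the other strand, and Tlk2 a CCAAT box and an NF-kB site, both read on the other strand. Lum held none of the motifs in this stretch. The genome build behind the deposited table was not given in the sources used here, so genes were matched by symbol, and 67 of the 100 named members had a RefSeq promoter.

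Over the 250 bases before the start, on both strands, the members resembled the 7709 promoters of the records tested in most motifs. The GC box (GGGCGG) was found in 61.2% of the members and 61.7% of those tested, the CCAAT box in 37.3% and 36.2%, the NRF1 site in 10.4% and 10.3%, and the ETS site (CCGGAAG) in 13.4% and 16.8%. The TATA box was found in 2.99% against 5.73%, the E box (CACGTG) in 4.48% against 8.68%, and the AP-1 site (TGANTCA) in 2.99% against 4.36%. The cyclic AMP element (TGACGTCA) was in 0 of 67 member promoters and in 3.02% of those tested. At that share 67 promoters would hold few such sites, so the 0 is not read as a result. Neither the glucocorticoid element nor the FXR inverted repeat, each searched in its full exact form, was found in a promoter of the members or of the records tested. Over all 27457 promoters these forms were in only 0.0036% and 0.025%. At such shares 67 promoters would hold hardly any, so their absence says nothing about binding of either receptor. The NF-kB site was in 9 member promoters, 13.4%, against 6.10% of those tested, and this motif was added after the Vcam1 promoter had been read. These counts describe letters in a window and were not tested, and GGGNNTTCC covers only part of the known NF-kB sites. The median GC content was 59.2% in members and 60.8% in records tested.

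DNA replication and repair gave 9 members, with a median difference of 0.22. Tlk2, a kinase of histone chaperones in S phase, had 6.92, 6.55 and 6.52 FPKM in FCA and 7.99, 9.34 and 11.08 FPKM at the lowest, median and highest of the TCDCA libraries. Its ratio of mean FPKM was 1.43, and its gap of 0.18 was the third widest among members, after AABR07063082.1 and the unnamed MSTRG.16599. Primpol, which restarts stalled replication forks, had 1.37, 1.32 and 1.42 FPKM in FCA and 1.61 to 2.4 FPKM with TCDCA. The 3 AT01 libraries were the lowest TCDCA libraries for Primpol. Tyms, the thymidylate synthase, had 7.17 to 7.29 FPKM in FCA and 7.38 to 9.81 FPKM with TCDCA. It did not meet the rule after scaling, nor when both records of its name were summed.

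Clspn and Topbp1, which carry the replication checkpoint signal, were higher by 0.17 and 0.24 on the log2(FPKM + 1) scale. Nasp, a histone chaperone, was higher by 0.30, and Xrcc2, a recombination protein, by 0.12. After scaling 5 of the 9 left the set, among them Tyms, Nasp and Xrcc2, against 24 of all 111 members.

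Mitosis and centrosome gave 4 members. Hmmr, a spindle protein and hyaluronan receptor, had 6.62, 6.94 and 7.31 FPKM in FCA. In the TCDCA libraries it had 7.81 at the lowest, 9.52 at the median and 11.31 FPKM at the highest, with a ratio of mean FPKM of 1.40. Aspm, which organises spindle poles, and Tubgcp5, a subunit of the gamma-tubulin ring, were both higher by 0.28 on the log2(FPKM + 1) scale, and Cdk5rap2, a centrosome protein, by 0.16.

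Lists of cell cycle genes gave the wider view. Of 30 records of mitosis and G2/M genes, 25 had a higher mean log2(FPKM + 1) with TCDCA and the median difference was 0.14, but Hmmr was the only member. Of 36 records of DNA replication and G1/S genes, 23 had a higher mean, with a median of 0.03, and Tyms was the only member. Over all records tested, 5885 had a higher mean.

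Transporters had the largest median difference of the role groups, 0.43 over 6 members. Slc25a32, the mitochondrial folate carrier, had 4.11, 3.67 and 2.69 FPKM in FCA and 4.7 to 5.47 FPKM with TCDCA. Its TCDCA libraries were tight, at 5.06 ± 0.27 FPKM (SD, n = 9), and its FCA libraries were spread over a wider range. Slc39a10, a zinc importer, had 2.39 to 2.72 FPKM in FCA and 2.74 to 3.73 FPKM with TCDCA, so that the groups nearly touched. Slc48a1, a heme transporter, was higher by 0.45 on the log2(FPKM + 1) scale.

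Ubiquitin and SUMO gave 9 members, 5 of them deubiquitinases or proteases of such tags. Protein ubiquitination was a Gene Ontology term of 3 members. They were 5.26% of the members with terms, against 2.56% of tested records with terms, which was not tested. Vcpip1, a deubiquitinase of Golgi assembly, had 2.65, 2.71 and 2.62 FPKM in FCA and 3.08, 4.05 and 5.51 FPKM at the lowest, median and highest of the TCDCA libraries, a ratio of mean FPKM of 1.53. Usp47 had 15.26 to 15.93 FPKM in FCA and 17.21 to 21.73 FPKM with TCDCA. Cyld, which removes ubiquitin chains from NF-kB signaling proteins, was higher by 0.20 on the log2(FPKM + 1) scale, and Usp34, which left the set after scaling, by 0.21.

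Kinases, GTPases and signaling gave 9 members. Nras, a small GTPase of the MAPK pathway, had 6.89, 5.43 and 5.75 FPKM in FCA. It had 7.58, 13.78 and 8.24 FPKM in AT01, 14.23, 13.23 and 11.88 in AT1, and 8.47, 10.62 and 7.03 in AT10. The AT1 libraries were high together, and the lowest AT10 library was just above the highest FCA library. Pde7b, a phosphodiesterase that breaks down cyclic AMP, had 1.52, 1.89 and 1.86 FPKM in FCA and 2.15 to 3.31 FPKM with TCDCA, a ratio of mean FPKM of 1.54. Cab39, a partner of the kinase LKB1, had 24.56 to 25.39 FPKM in FCA and 25.5 to 31.45 FPKM with TCDCA, and left the set after scaling.

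Transcription and chromatin gave 7 members, with a median difference of 0.37. Mef2a, a transcription factor, had 3.28 to 4.02 FPKM in FCA and 4.38 to 7.79 FPKM with TCDCA. RNA processing and ribosome assembly gave 9 members. Noc3l, a factor of the large ribosomal subunit, had 7.03, 6.86 and 7.52 FPKM in FCA and 8.16 to 10.24 FPKM with TCDCA. Ddx42, an RNA helicase of the spliceosome, had 14.21 FPKM in FCA 1 against 8.84 and 9.29 in FCA 2 and FCA 3, and 14.25 to 17.27 FPKM with TCDCA. The difference of 0.56 for Ddx42 thus stood beside a gap of 0.0038, since FCA 1 was level with the lowest TCDCA library.

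Enzymes of metabolism and protein modification gave 9 members. Dbt, a subunit of the branched-chain keto acid dehydrogenase, had 8.4 to 8.85 FPKM in FCA and 9.8 to 12.11 FPKM with TCDCA. Idh3a, a subunit of the citric acid cycle isocitrate dehydrogenase, had 47.15 to 49.08 FPKM in FCA and 49.95 to 54.72 FPKM with TCDCA, and its difference of 0.10 on the log2(FPKM + 1) scale was the lowest of the members. Abhd5, which activates triglyceride lipase, had 24.18 to 27.11 FPKM in FCA and 28.63 to 34.08 FPKM with TCDCA. Metap2, which removes the first methionine of proteins, had 21.91 to 24.16 FPKM in FCA and 24.41 to 32.06 FPKM with TCDCA, and left the set after scaling.

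Membrane traffic and cytoskeleton gave 7 members, with the smallest median difference, 0.19. Ehbp1, an adaptor of endocytosis, had 6.06 to 6.11 FPKM in FCA and 6.68 to 8.12 FPKM with TCDCA. Rai14 and Epb41l2, proteins of the actin cortex, were higher by 0.19 and 0.17 on the log2(FPKM + 1) scale. Stx5, a SNARE of Golgi transport, had 20.26 to 21.09 FPKM in FCA. Its TCDCA libraries split, with AT1 1, AT1 3, AT01 2 and AT01 3 at 21.66 to 21.97 FPKM and the rest at 25.94 to 32.57 FPKM.

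**Figure D3:**
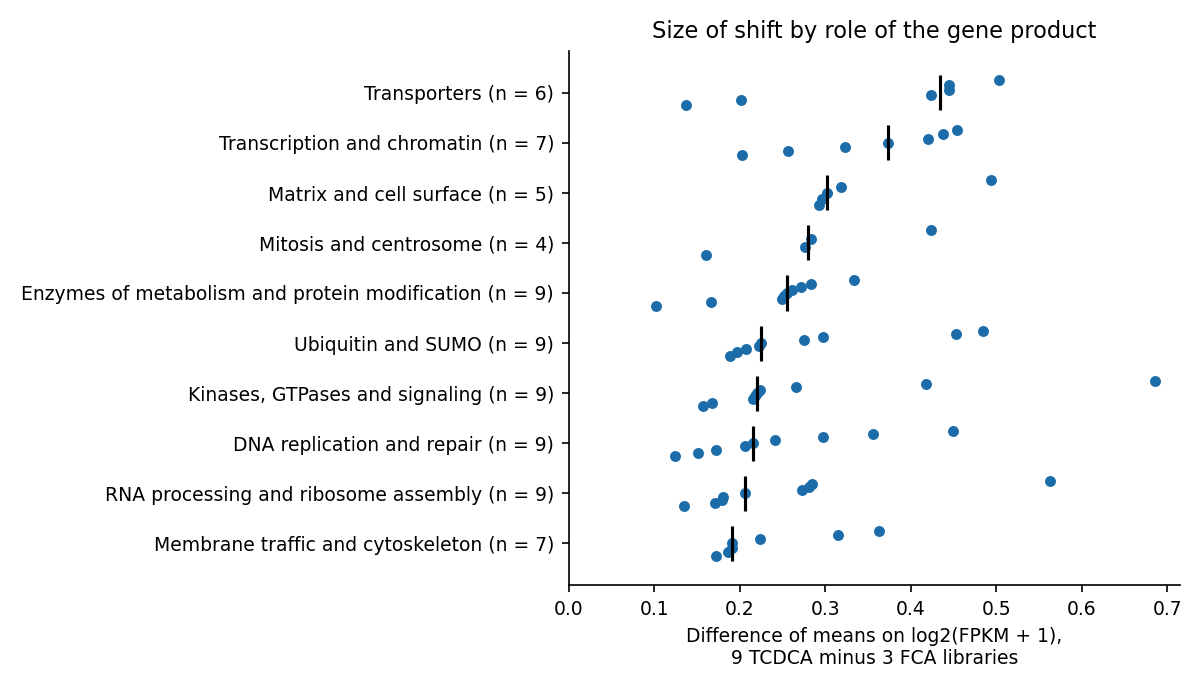
Difference of means on log2(FPKM + 1), 9 TCDCA minus 3 FCA libraries (x), for the 74 members given a role, by role group (y). Points are members and black bars are group medians, from 0.19 for membrane traffic and cytoskeleton to 0.43 for transporters. The role groups overlap in range, and the groups were formed after the members were known.

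Another 26 named members had no role assigned. The largest differences were mostly among them. AABR07055280.1 had 1.38, 15.94 and 0.41 FPKM in FCA and 17.28 to 25.44 FPKM with TCDCA, so FCA 2 stood near the TCDCA libraries and the other two far below. RGD1563601 was listed at 0, 0 and 2.99 FPKM in FCA and at 3.04 to 5.18 FPKM with TCDCA. LOC102547219 had 0.78, 5.11 and 4.22 FPKM in FCA and 5.16 to 6.69 FPKM with TCDCA, and left the set after scaling.

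Fam117b had 1.02 to 1.19 FPKM in FCA, but 5 TCDCA libraries stood at 4.23 to 4.71 FPKM and 4 at 1.24 to 1.42 FPKM. LOC100361898 had 0.27 to 0.31 FPKM in FCA, with 6.33 FPKM in AT10 1, 6.71 FPKM in AT1 3 and 0.34 to 0.61 FPKM in the remaining TCDCA libraries. In these records a mean describes no library. With AABR07055280.1 and RGD1563601 they were the 4 members, 3.60%, whose values fell at 2 separate levels, against 4.52% of all records tested. LOC100151767 had 2.7 to 3.2 FPKM in FCA and 3.41 to 8.54 FPKM with TCDCA. N4bp2, a protein with a nuclease domain, had 0.8 to 1.32 FPKM in FCA and 1.37 to 2.53 FPKM with TCDCA.

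The limits of the rule passed through values that hardly differed. Hccs, with 4.57 FPKM in FCA 3 and 4.58 FPKM in AT10 1, was just inside, as were Ccdc50 (7.62 and 7.64 FPKM) and Exoc2 (6.98 and 7.0 FPKM). Eif4ebp3, Serpinb6 and Thada were just outside, with ties between the groups at 4.45, 35.28 and 3.47 FPKM. On level, MSTRG.9839, Tmtc2 and LOC691931 were the lowest inside, each at 1.13 FPKM, and AABR07013288.4 at 0.888, Clic5 at 0.819 and AABR07002774.2 at 0.76 FPKM were the highest outside. Of 11 members whose name was shared by several records, 5 met the rule when the records were summed and 6 did not.

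The dose of TCDCA was compared next, to ask whether the members followed the concentration. The median difference from FCA on the log2(FPKM + 1) scale was 0.24 in AT01, 0.28 in AT1 and 0.29 in AT10, against 0.002, 0.016 and -0.009 over all records tested. AT10 had the highest mean in 55 members (49.5%, against 34.5% of all records tested), AT1 in 38 (34.2% against 35.4%) and AT01 in 18 (16.2% against 30.0%). The order AT01, AT1, AT10 from low to high was seen in 33 members (29.7% against 20.0%), and the reverse in 10 (9.01% against 17.1%). The 3 comparisons with FCA share the FCA libraries, and the lowest TCDCA library fell on AT01 1 most often. The rule used all 9 TCDCA values, so these shares are a description.

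**Figure D4:**
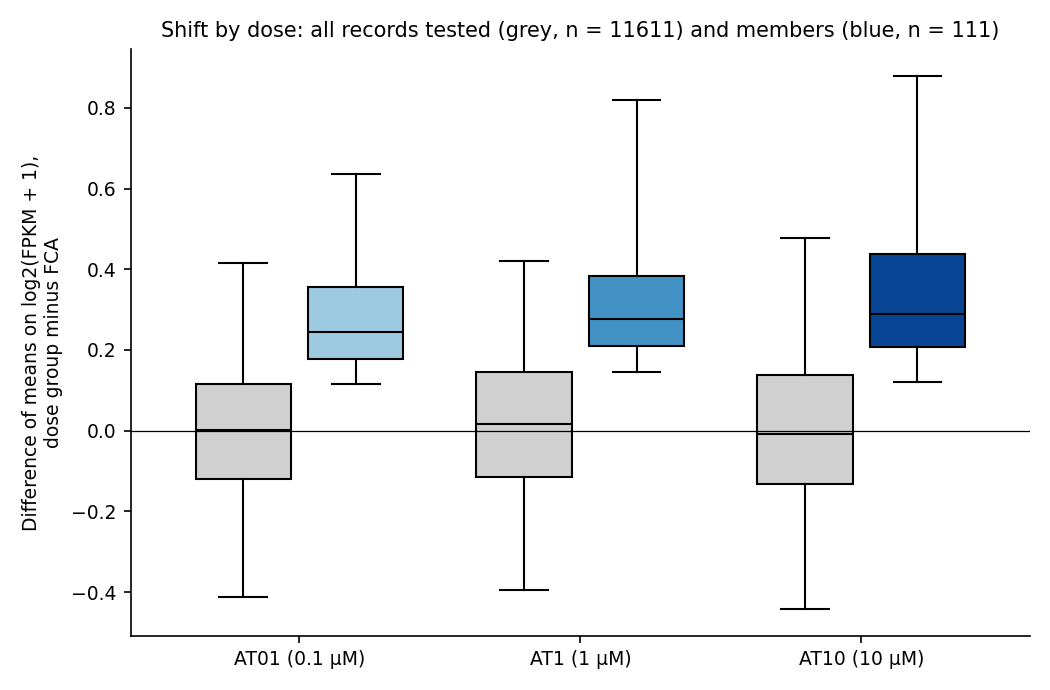
Difference of means on log2(FPKM + 1), each dose group minus FCA (y), for AT01, AT1 and AT10 (x). Boxes span the quartiles with the median and whiskers reach the 5th and 95th percentiles, in grey for all 11611 records tested and in blue for the 111 members. The members' medians were 0.24, 0.28 and 0.29, and the grey medians lie near 0.

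No member passed the test between doses. Of the 11611 records, limma called 30 (0.258%) between AT10 and AT1, 8 (0.0689%) between AT10 and AT01, and 15 (0.129%) between AT1 and AT01 at a Benjamini-Hochberg adjusted p under 0.05. The slope per 10-fold of dose called 0 (0%). Members called were 0 in all 4. At an unadjusted p under 0.05 the members counted 2 (1.80%, against 6.46% of all records tested) for AT10 against AT1, 3 (2.70% against 4.97%) for AT10 against AT01, 4 (3.60% against 3.43%) for AT1 against AT01 and 4 (3.60% against 6.24%) for the slope. The rule bears on these shares, since it admits few records with a wide spread among the TCDCA libraries, and nothing is read from their size. The median absolute difference between doses on the log2(FPKM + 1) scale was 0.070, 0.079 and 0.061 in the members and 0.106, 0.114 and 0.094 over all records tested, in the same order of comparisons. A t test without moderation also called 0 members in each of the 4. The comparisons of pairs of doses are tests of 3 libraries against 3, the slope was fitted over 9 libraries, and a p that misses the threshold does not show that the doses act alike.

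Single members leaned in different directions. AABR07063082.1 had 13.53, 13.46 and 15.55 FPKM in FCA, 44.03, 38.29 and 37.32 in AT01, 31.45, 26.5 and 21.69 in AT1, and 25.25, 25.5 and 22.93 in AT10. Its lowest dose was its highest group, with no overlap of AT01 with either other dose. AT10 was lower than AT01 by a log2(FPKM + 1) difference of -0.68 (SE 0.094), with an adjusted p of 0.304 by limma, which ranged from 0.148 to 0.822 over the alternatives. It also had the widest gap of all members, 0.46, and its FCA and TCDCA means differed 2.14-fold.

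Primpol ran the other way, with 1.61, 1.81 and 1.68 FPKM in AT01, 2.29, 2.04 and 2.17 in AT1, and 2.17, 2.22 and 2.4 in AT10. AT01 did not overlap with the higher doses, which overlapped with each other. The slope was 0.14 (SE 0.041) per 10-fold of dose, with an adjusted p of 0.712 by limma and from 0.399 to 0.894 over the alternatives. Nras was lower in AT10 than in AT1 by -0.55 (SE 0.15), with no overlap of these groups and an adjusted p of 0.693 by limma, from 0.360 to 0.880 over the alternatives. Lum differed by 0.01 (SE 0.072) between AT10 and AT1 and by -0.07 (SE 0.12) between AT10 and AT01, with adjusted p of 0.985 and 0.924 by limma.

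Of 33 gene lists for pathways and cell functions, 6 held a member of the higher set. Vcam1 was the member of the inflammatory list (29 records tested) and of the integrin list (24 records), Lum of the collagen and matrix list (41 records), and Slc39a10 of the metal transport list (24 records), beside Tyms and Hmmr. The other 27 lists held 0, among them glucocorticoid receptor targets (19 records), cyclic AMP-PKA-CREB targets (20), bile acid receptors and transporters (12), interferon response (16), sterol synthesis (22) and oxidative phosphorylation (75). The set holds 0.956% of all records tested, and a count of 0 or 1 in lists this short lies near that share and is not a result about them.

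Records lower in every TCDCA library were found in 13 lists. Beside Lum, the collagen list held 6 of them (14.6% of its 41 records, against 1.9% of all records tested), which were Col18a1, Col6a1, Col5a3, Bgn, Col4a2 and Col4a1. The contractile list held 3 of 21 records (14.3%), Myl9, Acta2 and Smtn, and the integrin list, beside Vcam1, held Tln1 and Thy1. The lists were chosen with earlier results of these data known, and these shares were not tested. Within the collagen list, Lum was thus the only record higher in every TCDCA library, beside a median difference of -0.09.

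Cell type markers were checked in each library. Of 11 FLS markers 9 were in the table, all with a mean of at least 1 FPKM, and Fap was the only member among them. Their summed level was 4852 to 5575 FPKM in FCA and 3686 to 5172 FPKM with TCDCA. On the log2(FPKM + 1) scale, Fap and Cdh11 had higher means with TCDCA, by 0.30 and 0.11. All other FLS markers in the table had lower means, with differences from -0.11 for Pdgfrb to -0.26 for Col1a1. Thy1 was lower in every TCDCA library. Smooth muscle markers (4 of 5 in the table) summed to 306.9 to 410.0 FPKM in FCA and 158.9 to 302.8 FPKM with TCDCA, ranges that did not overlap. Acta2 alone separated the groups, at 263.19 to 370.12 FPKM in FCA and 125.35 to 255.5 FPKM with TCDCA. The ranges of Myh11, Cnn1 and Des overlapped, with differences of -0.02, 0.02 and 0.05 on the log2(FPKM + 1) scale. Their part in the members' difference was not tested.

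Macrophage markers (5 of 9 in the table) summed to 6.73 to 22.0 FPKM in FCA and 5.75 to 21.5 FPKM with TCDCA, mostly Cd14, with Adgre1 under 0.1 FPKM in every library. Adipocyte markers (4 of 4) summed to 34.5 to 43.0 and 26.9 to 41.5 FPKM, mostly Fabp4, and chondrocyte markers (5 of 5) to 8.01 to 10.1 and 4.73 to 8.54 FPKM, with Col2a1 under 0.1 FPKM. Acan alone of these chondrocyte markers separated the groups, at 4.89 to 5.79 FPKM in FCA and 2.74 to 4.58 FPKM with TCDCA. Endothelial markers (5 of 6) summed to at most 0.21 FPKM and T cell markers (3 of 5) to at most 0.07 FPKM in every library. Between 17736 and 18505 records were above 0 in each library, the fewest in AT10 1 and the most in AT01 3. The paper lists valid reads per library, which were also fewest in AT10 1 and most in AT01 3. Most FCA libraries lay near the low end of these read numbers. Whether this uneven depth bears on the members was not tested. The deposited table holds no read counts per record, so the number of reads behind each value is unknown.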

How the data were processed

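Poly(A) RNA of 12 FLS libraries was sequenced, with 3 libraries in each of 4 groups. The authors trimmed reads with cutadapt, aligned them with HISAT2, assembled transcripts with StringTie and deposited FPKM to 2 decimals per gene record. For differential expression the study's text names Ballgown. The submitters' processing notes name edgeR, and its use was not given in the sources used here. Library construction marked strand. Of the 111 members, all carry StringTie locus identifiers (MSTRG), as do 99.9% of the records tested, so a record can merge or split genes.

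Groups were taken from the sample labels. The members, gene lists, roles and motifs were chosen with earlier results of these data known. Members were found by the rule in the text. Values were transformed as log2(FPKM + 1), which understates the change of low genes, and doses were compared with limma 3.58.1 in R 4.3.3 (lmFit, eBayes with trend, two-sided), 2 groups at a time, with Benjamini-Hochberg adjustment over 11611 records. The slope used the 9 TCDCA libraries. The fits were checked on simulated data with shifts larger than the members' differences between doses. The check therefore says nothing about how many shifts of the members' size would be found. Tables and figures were made in Python 3.11.15 with pandas 2.3.3, NumPy 2.4.6 and Matplotlib 3.10.9.

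Named genes were the 15 named members of widest gap, the 10 of largest difference, the 10 of highest mean FPKM, up to 3 members of each gene list, those called between doses, and the 3 records on each side of each limit of the rule. This named 34 members beside those at the limits, and 1 of the 34 is not reported here. Values were called 2 levels if, on the log2(FPKM + 1) scale, 1 empty stretch of 1 or more parted the libraries and exceeded the spread inside each part, with 2 or more libraries per part. Alternatives were adding 0.1 before the log, filtering at 10 FPKM or not at all, median-of-ratios scaling, and summing by gene name. Further alternatives were leaving out records at 0 or at 2 levels, and leaving out each library. For the fits they were also 1 fit over 12 libraries, an unmoderated t test, and the replicate number as a block. No counting interval could be given without read counts.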

Additional observations from a re-analysis of the deposited data

How the results depend on the processing

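The member count of 111 was 142 without a filter, 97 after scaling, 106 when summed by name, 110 without records at 0 and 107 without records at 2 levels, but 28 at a mean of at least 10 FPKM, which tests fewer records. Leaving out 1 library gave 118 to 538, with 538 without FCA 3, 269 without AT01 1, 258 without FCA 1, 203 without FCA 2 and 177 without AT10 1, since fewer libraries had to be separated. The members' median difference of 0.28 was 0.32 with a pseudocount of 0.1, 0.27 after scaling and 0.24 to 0.30 with a library left out.

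Records called between AT10 and AT1 (30) were 3 in 1 fit over all 12 libraries and 18 by the unmoderated t test. With a library left out they were 26 to 50, with 50 without AT1 3. Between AT10 and AT01 (8) they were 5 at a mean of at least 10 FPKM. They were 0 in the fit over 12 libraries and 5 by the t test. With a library left out they were 12 to 24, 24 without AT01 3. Between AT1 and AT01 (15) they were 7, 2 and 5 in the same order, and 11 to 25 with a library left out, 25 without AT01 3. The cause was not tested. The slope called 0 records and the members called were 0 in every comparison under all alternatives run.

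Same-numbered libraries of different groups did not deviate together (correlations from -0.105 to 0.0942), so the numbers were not taken as pairs. With the replicate number as a block, the calls were 1 for AT10 against AT1, 0 for AT10 against AT01 and 2 for AT1 against AT01. FPKM without counts gives no precision for a value, and members under 5 FPKM (52 of 111) rest on small steps between libraries.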
